A study of Mus musculus with 14 samples.

Results

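The E2F target and DNA replication genes described here were 171 of the 19525 genes counted in 14 libraries of mRNA from 4T1 spheroids. The deposited gene sets held 200 mouse genes as Hallmark E2F targets, of which 199 had counts (*Cdkn2a* is not analysed here). From these, 19 genes that also belong to the mitotic spindle set, 5 of the spliceosome set, 2 of the ribosomal RNA processing set, and *Myc* and *Eif2s1* were left out. This rule reads gene names and no measured value, and each of the 171 averaged 5 CPM or more, the counts of a gene scaled for the size of its library.

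4T1 cells come from a mouse mammary tumor and lack hormone receptors and HER2, and their spheroids were grown for 5 days in lung-like medium, a medium made to resemble the nutrients of the lung. Every group carried a lentiviral hairpin in polyclonal, puromycin-selected cells, so hairpin expression and selection were common to all. Control spheroids with a non-targeting hairpin were grown without added aspartate (NoASP shSCR, n = 3) or with 700 µM aspartate (ASP shSCR, n = 4). Knockdown of *Grin2d*, an NMDA receptor subunit (ASP shGRIN2D, n = 3), and of *Dhps*, the first enzyme of eIF5A hypusination (ASP shDHPS, n = 4), was examined in the presence of 700 µM aspartate. Each target was represented by 1 hairpin line, whose sequence is not given in the sources used here, and no knockdown spheroids without aspartate are analysed here.

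E2F transcription factors switch on the genes a cell needs to enter and complete S phase. They are held back by the retinoblastoma protein until cyclin-dependent kinases phosphorylate it, and cyclin E then reinforces the switch. Their targets license replication origins, unwind and copy DNA, supply nucleotides, package and repair the new chromatin, and run on into mitosis, so in tumor cells their mRNA levels follow the share of cells in cycle.

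The counts of 1 library summed to between 12731123 and 23231378. In ASP shSCR *Dhps* had a mean of 19.4 CPM ± 2.28 (SD, n = 4), against 6.93 ± 1.74 (n = 4) in ASP shDHPS, and the fall passed the test of edgeR's quasi-likelihood model (Benjamini-Hochberg adjusted p = 8.31e-06). *Grin2d* had few reads, with 3.60 CPM ± 0.423 (n = 4) in ASP shSCR and 2.46 ± 0.590 (n = 3) in ASP shGRIN2D. These groups did not overlap, but the difference did not pass the same test (adjusted p = 0.516). The 8 epithelial markers had a summed level of 5147 to 5413 CPM in the 7 shSCR libraries, 3882 to 4186 in ASP shGRIN2D and 4069 to 4767 in ASP shDHPS. Immune markers summed to 5.82 to 16.9 CPM, nearly all from *Cd68*, with *Ptprc* under 0.65 and *Cd79a* and *Lyz2* at 0 in some libraries. Endothelial markers reached at most 0.55 CPM, and fibroblast markers lay between 22.7 and 40.7 CPM, nearly all from *Pdgfra*. *Adgre1*, *Cd3e*, *Kdr*, *Col3a1* and *Lum* are not analysed here. The labels do not say whether replicates were separate cultures. The authors describe the polysome fractions, whose input gave this RNA, as taken from independent spheroid pellets. Whether these pellets were separate cultures is not stated. The p-values measure the spread between these libraries, and how much of it is technical is not known. In bulk RNA, fewer cycling cells and less mRNA in each cell cannot be told apart.

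The promoters of these genes are shown first because the set is defined by a transcription factor. RefSeq promoters on GRCm38.p6, from 250 bases before to 50 after the transcription start, were matched for 143 of the 171 genes. Both strands were searched for the E2F motif in 4 spellings (TTTCCCGC, TTTCGCGC, TTTGCCGC and TTTGGCGC), for the CCAAT box, and for the cell cycle homology region (TTTGAA or TTCGAA). The E2F motif stood in 21.2% of the members' promoters, compared with 4.31% of the promoters of all genes at 5 CPM or more and 2.27% of all 32851 promoters. The CCAAT box stood in 54.5%, 38.0% and 37.4%, and the cell cycle homology region in 30.3%, 13.5% and 19.2% of the same groups of promoters. The sequences below are those of 4 genes of the replication fork or the helicase whose mRNA is described further on, with the E2F motif as read on the gene's strand in capitals. They lie at chr1:20820275-20820304 and chr1:20820263-20820285 (minus strand, *Mcm3*), chr8:95633507-95633536 (plus, *Gins3*), chr7:13278841-13278870 (plus, *Lig1*) and chr7:44548766-44548787 (minus, *Pold1*).

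Mcm3, first match: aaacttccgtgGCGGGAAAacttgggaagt
Mcm3, second match: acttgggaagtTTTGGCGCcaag
Gins3: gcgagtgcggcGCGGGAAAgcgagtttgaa
Lig1: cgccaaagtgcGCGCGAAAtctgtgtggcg
Pold1: cgtatcttgtgGCGGGAAAagc

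The matches began at 19 and 38 (*Mcm3*), -41 (*Gins3*), 26 (*Lig1*) and 39 (*Pold1*) bases from the start site. A match of letters is a description, not a binding site. In the comparisons below, the log2 fold changes with shGRIN2D were -0.41 (*Mcm3*), 0.07 (*Gins3*), -0.27 (*Lig1*) and -0.29 (*Pold1*). With shDHPS they were 0.02, 0.56, -0.43 and -0.50 in the same order. *Mcm3* passed the test with shGRIN2D only, and the others with shDHPS only.

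Levels of the 171 genes ranged from a mean of 9.48 CPM for *Dscc1*, a subunit of a clamp loader, to 1511 CPM for *Tubb5*, a beta-tubulin, with a median of 75.9 CPM. Together they took 2.28% ± 0.057 of the CPM of a NoASP shSCR library (SD, n = 3), 2.28% ± 0.070 of ASP shSCR (n = 4), 2.13% ± 0.035 of ASP shGRIN2D (n = 3) and 2.29% ± 0.121 of ASP shDHPS (n = 4). The 3 shGRIN2D libraries held 2.10% to 2.17%, and each shSCR library held more, the lowest being ASP shSCR replicate 2 at 2.17% (2.17335 compared with 2.16797 for the highest shGRIN2D library). The genes that varied most across the 14 libraries were *Ccne1*, with a range of 1.97 on the log2 CPM scale, *Ccp110* (1.25), *Gins3* (1.22), *Dclre1b* (1.16) and *Wdr90* (1.15). The steadiest were *Ssrp1*, a subunit of the histone chaperone FACT, with a range of 0.19, *Mre11a*, a nuclease of double-strand break repair (0.24), and *Xpo1*, a nuclear export receptor (0.24).

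Within each library, the median gene of the set was compared with the mean of ASP shSCR on the log2 CPM scale. The median lay at -0.029, 0.031 and 0.027 in NoASP shSCR replicates 2, 3 and 4, and at 0.025, -0.078, 0.032 and 0.030 in ASP shSCR replicates 1 to 4. It lay at -0.087, -0.110 and -0.127 in ASP shGRIN2D, and at 0.137, -0.0097, -0.000059 and -0.021 in ASP shDHPS. All 3 shGRIN2D libraries were below every other library, ASP shSCR replicate 2 was the lowest of the others, and ASP shDHPS replicate 1 was the highest of all. Changes made by leaving them out are given beside the results they touch.

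**Figure D1:**
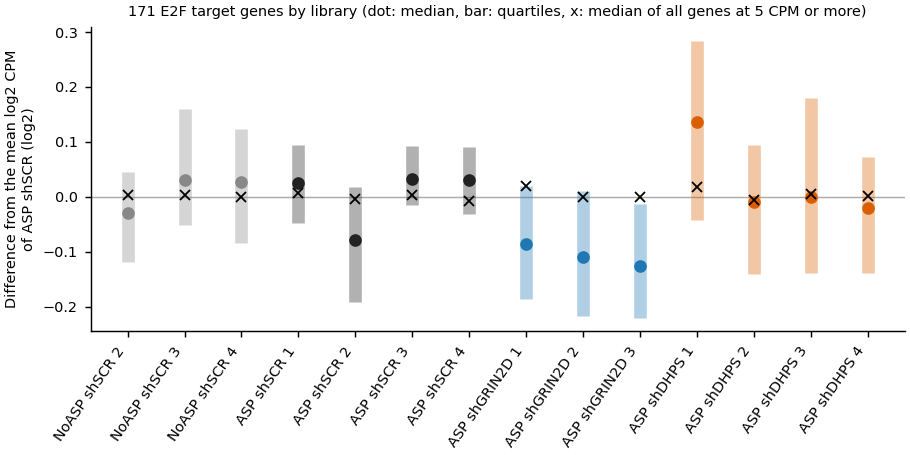
Difference of the 171 E2F target genes from the mean of ASP shSCR in each of the 14 libraries (vertical axis, log2 CPM; dots are medians, bars run from the first to the third quartile, and crosses mark the median of all genes at 5 CPM or more). The shGRIN2D medians lie between -0.127 and -0.087, below all others, and ASP shDHPS replicate 1 stands highest at 0.137, while the crosses stay near 0.

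Added aspartate was compared with no added aspartate in control spheroids, the comparison that asks what aspartate does to the transcriptome of these cells. No E2F target gene passed the test at an adjusted p under 0.05 (edgeR's quasi-likelihood model, Benjamini-Hochberg over 19525 genes), and neither did any other gene (0% of all genes). DESeq2 also called 0 members. At an unadjusted p under 0.05, 1 member (0.585%) and 2.17% of all genes passed. The median log2 fold change of the members was -0.01, with 73 positive and 98 negative, beside 0.00 over all genes.

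The 1 member was *Cenpm*, a centromere protein, with 16.0, 16.2 and 15.8 CPM without aspartate and 20.1, 17.6, 18.1 and 24.1 CPM with it. All 4 libraries with aspartate were above all 3 without, and the log2 fold change was 0.32 ± 0.13 (SE). Its adjusted p from edgeR was 1.

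Other members with the smallest p were further from the threshold. Those with a positive log2 fold change were *Wdr90* (0.22), *Cks1b*, a subunit of cyclin-dependent kinases (0.15), *Prdx4*, a peroxiredoxin (0.14), and *Naa38*, a subunit of an N-terminal acetyltransferase (0.17). Those with a negative one were *Mms22l*, which helps to restart stalled forks (-0.15), *Zw10*, of the kinetochore (-0.14), *Mybl2*, a transcription factor of the cell cycle (-0.15), *Rnaseh2a*, which removes ribonucleotides from DNA (-0.13), and *Pnn*, a splicing-associated protein (-0.15). None of these passed.

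For *Pcna*, the sliding clamp of the polymerases, the levels were 317, 434 and 350 CPM without aspartate and 399, 295, 397 and 374 CPM with it. The groups overlapped, and the 95% interval of the log2 fold change ran from -0.24 to 0.23. The interval ran from -0.24 to 0.12 for *Mcm2* and from -0.07 to 0.24 for *Cdk4*, the kinase that phosphorylates the retinoblastoma protein. Same-numbered libraries of these groups deviated together over the members (r = 0.783, 0.422 and 0.393 for replicates 2, 3 and 4). The intervals come from the fit with group as its only term, which does not use this. They are intervals of single genes and do not mark what the test could detect after adjustment over all genes. *Cenpm*, with the largest log2 fold change of the members (0.32), did not pass.

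The GRIN2D knockdown was compared with ASP shSCR. Of the 171 genes, 5 were lower and none was higher at an adjusted p under 0.05 in edgeR's quasi-likelihood model, and *Ccp110*, *Ccne1*, *Depdc1a* and *Mcm3* are described here. That is 2.92% lower, beside 0.732% of all genes and 1.29% of the genes at 5 CPM or more; among all genes 0.425% were higher (0.597% of those at 5 CPM or more). Most members had a negative log2 fold change (133 of 171), and their median was -0.12, beside 0.00 over all genes. In 40 members (23.4%) every shGRIN2D library was below every ASP shSCR library, beside 9.46% of the genes at 5 CPM or more, and in 5 members (2.92%, beside 7.65%) every one was above. These 4 calls remained when ASP shSCR replicate 2 and ASP shDHPS replicate 1 were both left out, with adjusted p between 0.000119 and 0.00767 in edgeR, but leaving out 1 library at a time left 1 to 4 members called.

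*Ccp110* encodes a centriole cap protein that blocks cilium growth. It measured 14.1, 12.6, 14.9 and 15.4 CPM in ASP shSCR and 8.09, 7.22 and 8.87 CPM in ASP shGRIN2D. The groups were well apart, the log2 fold change was -0.82 ± 0.13 (SE; edgeR adjusted p = 0.00165), and the call held in all 15 alternative analyses that tested it, with adjusted p between 2.22e-06 and 0.0213.

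*Ccne1*, cyclin E1, which drives entry into S phase, measured 21.3, 13.4, 23.2 and 24.0 CPM in ASP shSCR and 9.12, 12.7 and 9.07 CPM in ASP shGRIN2D. All 3 shGRIN2D libraries were lower, though ASP shSCR replicate 2 came close to shGRIN2D replicate 2. The log2 fold change was -0.99 ± 0.19 (edgeR adjusted p = 0.00835), and the call was lost without shGRIN2D replicate 1 (adjusted p = 0.0836) or 3 (0.0856).

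*Depdc1a*, a gene of mitosis, measured 44.7, 46.2, 45.1 and 46.1 CPM in ASP shSCR and 35.2, 31.9 and 32.1 CPM in ASP shGRIN2D. Both groups were tight and did not overlap, with a log2 fold change of -0.46 ± 0.10 (edgeR adjusted p = 0.0239). The call was lost without any 1 of the 3 shGRIN2D libraries or without ASP shSCR replicate 3 or 4, with adjusted p between 0.0525 and 0.150.

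*Mcm3*, a subunit of the helicase that unwinds DNA at the fork, measured 197, 178, 210 and 207 CPM in ASP shSCR and 156, 142 and 150 CPM in ASP shGRIN2D. The groups did not overlap, and the log2 fold change was -0.41 ± 0.09 (edgeR adjusted p = 0.0242). Without any 1 of the 3 shGRIN2D libraries, or without ASP shSCR replicate 1, 3 or 4, the call was lost (adjusted p up to 0.159).

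The other subunits of the MCM helicase did not pass. The log2 fold change was -0.19 for *Mcm5*, -0.19 for *Mcm7*, -0.17 for *Mcm6*, -0.07 for *Mcm4* and 0.01 for *Mcm2*, each ± 0.08 to 0.10. Per kilobase of transcript, the levels of the 6 subunits in ASP shSCR ran from 43.6 CPM per kb ± 3.13 for *Mcm2* through 49.9 ± 4.64 for *Mcm4*, 63.0 ± 2.34 for *Mcm6*, 65.3 ± 4.81 for *Mcm3* and 73.2 ± 3.17 for *Mcm7* to 82.6 ± 6.03 for *Mcm5* (SD, n = 4). Neighbours in this order differed by less than the sum of their SDs, except *Mcm4* and *Mcm6*, and *Mcm7* and *Mcm5*. At the origin, *Orc2* and *Orc6* bind DNA before the helicase is loaded: *Orc2* gave 0.22 and *Orc6* -0.04, and *Gins1*, part of the active helicase, gave -0.08, none past the test.

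By role, the median log2 fold change was -0.21 for the 25 genes of mitosis and segregation, -0.16 for the 16 cell cycle regulators, -0.15 for the 16 genes of polymerases, clamp and fork, and -0.13 each for the 15 helicase and origin, 12 nucleotide supply and 5 cohesin and condensin genes. The cohesin and condensin group also counts *Smc6*, of a related SMC complex. The median was -0.11 for the 24 chromatin genes and for the 25 repair and checkpoint genes. The 11 genes of nuclear envelope and transport and the 22 genes of RNA and other roles gave -0.03. Negative values held for 22 of the 25 mitosis genes, 21 of the 24 chromatin genes and 13 of the 16 polymerase genes, yet no gene of the polymerase, chromatin or nucleotide groups passed the test.

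Among the fixed examples of these groups, *Pole*, the leading-strand polymerase, had 62.0, 73.1, 76.5 and 71.6 CPM in ASP shSCR and 60.1, 56.4 and 57.5 in ASP shGRIN2D, and *Tk1*, thymidine kinase, had 194, 157, 172 and 174 CPM and 154, 140 and 128 CPM. In both genes every shGRIN2D library was below every control library, with log2 fold changes of -0.29 ± 0.10 and -0.31 ± 0.10 and adjusted p of 0.265 and 0.192 in edgeR. *Brca1* (-0.27), *Rad51ap1* (-0.21) and *Chek1* (-0.19), of repair and checkpoint, *Cdkn2c*, a CDK inhibitor (-0.23), and *Rfc3*, of the clamp loader (-0.14), had the same order of groups and did not pass. *Pcna* lay at 399, 295, 397 and 374 CPM in ASP shSCR and 379, 353 and 363 CPM in ASP shGRIN2D, fully overlapping, and its 95% interval was -0.24 to 0.23. The groups also overlapped, with no call, for *Rrm2* (-0.14), *Dut* (-0.18), *Hells* (-0.14), *Nasp* (-0.11), *Dnmt1* (-0.18), *E2f8* (-0.24), *Mybl2* (-0.06), *Cdk4* (0.01) and *Cdc25a* (0.10).

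The members with the smallest p in the positive direction did not pass either. They were *H2ax*, the histone that marks DNA breaks (0.19 ± 0.08), *Ppp1r8* (0.20 ± 0.09), *Orc2* (0.22 ± 0.12), *Psmc3ip*, which assists recombination (0.19 ± 0.11), and *Pnn* (0.18 ± 0.12), all with adjusted p of 0.423 or more in edgeR. *H2ax* was at 136, 124, 137 and 149 CPM in ASP shSCR and at 156, 156 and 155 CPM in ASP shGRIN2D, without overlap. *Cdkn1a*, the CDK inhibitor p21, gave 0.16 ± 0.10 with overlapping groups.

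**Figure D2:**
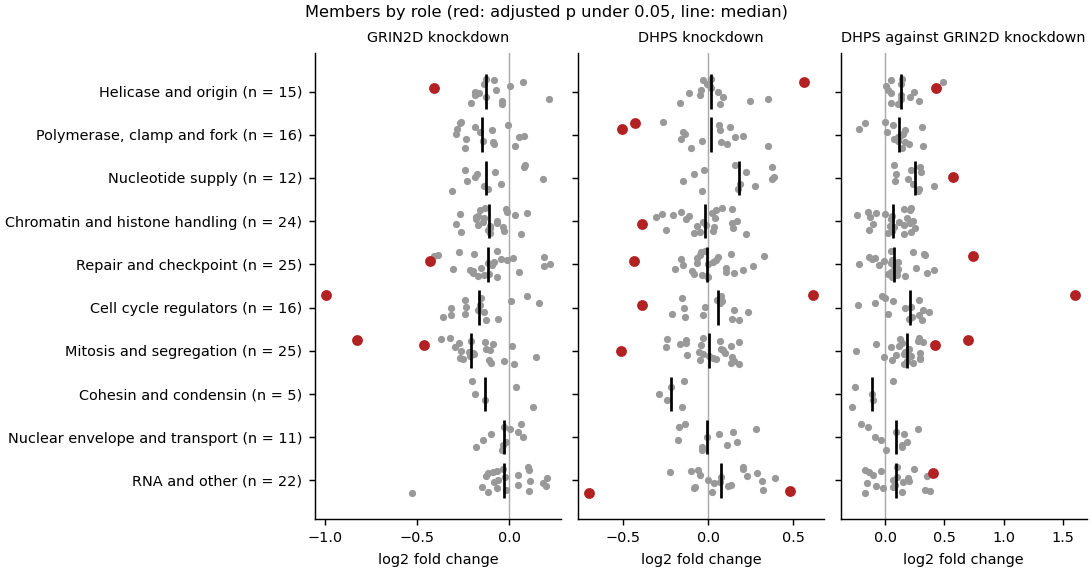
Log2 fold change of each of the 171 genes (horizontal axes) by role (vertical axis, with the number of genes) in the 3 knockdown comparisons. Points are genes, red points passed the test at an adjusted p under 0.05, and black lines are medians: they lie left of 0 in every role for the GRIN2D knockdown, from -0.21 to -0.03, and on both sides of 0 for the DHPS knockdown.

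Of the 5 genes lower with shGRIN2D, *Ccne1*, *Ccp110* and *Depdc1a* hold the 7 bases TCATGAA in the 3′ UTR of an annotated protein-coding transcript (GENCODE M21 on GRCm38). All such transcripts of a gene were read, and a gene counts as holding the sequence if any of them does. The sites shown are those of the transcript with the most matches. This sequence was searched because earlier results of these data had shown it among genes lower with shGRIN2D, so its counts are a description. The sites are printed with 11 bases on each side and the 7 bases in capitals, on the strand of the mRNA. They lie at chr7:38098046-38098052 (minus strand, *Ccne1*), chr7:118735695-118735701 and chr7:118735980-118735986 (plus, *Ccp110*) and chr3:159529490-159529496 (plus, *Depdc1a*).

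Ccne1: atgtcctgcctTCATGAActcttattttg
Ccp110, first site: ctaaatttcatTCATGAAatttttttcta
Ccp110, second site: tagcacaatttTCATGAAcatagcactgg
Depdc1a: taagtatcagaTCATGAAaaatattgtac

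The sequence occurs in 27 of the 171 members (15.8%), beside 13.3% of the genes at 5 CPM or more whose 3′ UTR was read. With shGRIN2D, 3 of these 27 genes were lower (11.1%) and 2 of the 144 others (1.39%), beside 4.65% of the genes at 5 CPM or more with the sequence and 0.783% of those without. The medians of the members differed less: -0.13 with the sequence and -0.11 without. When every gene with the sequence was taken out of the test, 1 member, *Mcm3*, was lower. The values of the remaining genes that hold the sequence and are described here were -0.41 for *Dclre1b*, -0.27 for *Brca1*, -0.19 for *Chek1*, -0.14 for *Rrm2*, 0.13 for *Stag1* and 0.10 for *Tfrc*. Whether the sequence plays a part in any of these changes was not tested.

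**Figure D3:**
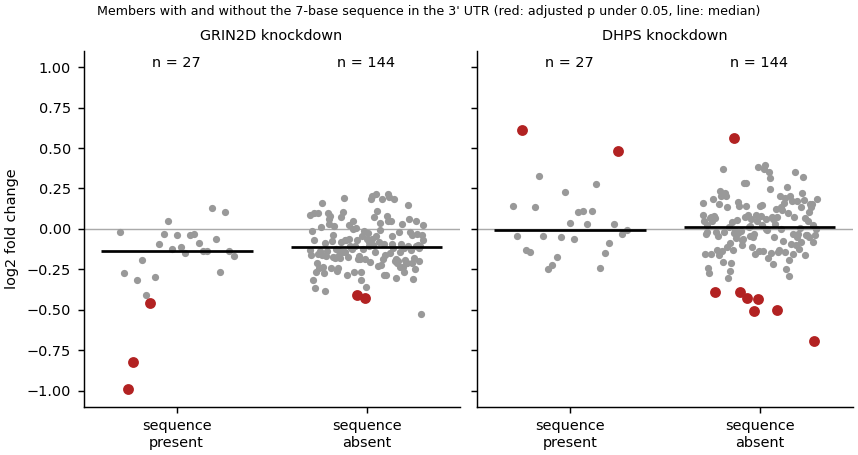
Log2 fold change (vertical axes) of the 27 members with the 7-base sequence in the 3′ UTR and the 144 without it, for the GRIN2D and the DHPS knockdown. Points are genes, red points passed the test and lines are medians: the 3 lowest members with shGRIN2D among those with the sequence are the called ones, and with shDHPS all 7 lower calls are among genes without it.

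The DHPS knockdown was compared with ASP shSCR. Here the members went both ways: 3 were higher (1.75%) and 7 lower (4.09%) at an adjusted p under 0.05 in edgeR's quasi-likelihood model. Among all genes 1.65% were higher and 2.57% lower, and among those at 5 CPM or more 2.80% and 4.14%, so the shares of the members were near those of other genes of similar level. The median log2 fold change was 0.01, with 88 positive and 83 negative. Groups did not overlap for 16 members that were higher (9.36%, beside 7.88% of the genes at 5 CPM or more) and 18 that were lower (10.5%, beside 8.85%).

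Among those lower were *Lig1* and *Pold1* of the fork, *Hmgb2* of chromatin, the CDK inhibitor gene *Cdkn1b*, the proliferation marker *Mki67*, and *Wdr90*, a centriole protein. *Lig1*, which seals Okazaki fragments, measured 90.2, 111, 99.5 and 107 CPM in ASP shSCR and 68.3, 78.9, 77.2 and 78.0 CPM in ASP shDHPS, a log2 fold change of -0.43 ± 0.09 (edgeR adjusted p = 0.00558). *Pold1*, the catalytic subunit of the lagging-strand polymerase, measured 54.7, 59.1, 50.3 and 52.6 CPM and 35.8, 37.6, 39.9 and 39.6 CPM, a log2 fold change of -0.50 ± 0.10 (adjusted p = 0.00573). In both genes the highest shDHPS library was below the lowest control library.

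*Wdr90* had 19.9, 26.6, 22.1 and 20.4 CPM in ASP shSCR and 11.9, 13.6, 13.9 and 15.5 CPM in ASP shDHPS (-0.70 ± 0.12, edgeR adjusted p = 0.00279). *Hmgb2*, a DNA-bending chromatin protein, had 474, 475, 432 and 479 CPM and 414, 346, 342 and 319 CPM (-0.39 ± 0.09, adjusted p = 0.0121). All of these groups were apart, and the calls of *Lig1*, *Pold1*, *Wdr90* and *Hmgb2* held in all 17 alternatives.

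*Cdkn1b*, the CDK inhibitor p27, had 107, 137, 110 and 122 CPM in ASP shSCR and 88.8, 98.2, 85.2 and 91.6 CPM in ASP shDHPS, without overlap (-0.39 ± 0.09, edgeR adjusted p = 0.0125). The call was lost without ASP shSCR replicate 2 (adjusted p = 0.0602) or ASP shDHPS replicate 3 (0.0513). *Mki67*, the proliferation antigen Ki-67, had 421, 644, 561 and 580 CPM and 298, 392, 388 and 473 CPM (-0.51 ± 0.13, adjusted p = 0.0231). Its groups overlapped, since the lowest control library was below the highest shDHPS library, and the call was lost without ASP shSCR replicate 2 or 4 or ASP shDHPS replicate 1 or 3 (adjusted p between 0.0628 and 0.0822). With both ASP shSCR replicate 2 and ASP shDHPS replicate 1 left out, the log2 fold changes were -0.30 for *Cdkn1b* (adjusted p = 0.0595) and -0.32 for *Mki67* (0.148).

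Higher were *Gins3*, *Ccne1* and *Tfrc*. *Gins3*, a subunit of the GINS complex of the active helicase, had 22.1, 14.8, 20.3 and 22.9 CPM in ASP shSCR and 34.7, 24.8, 32.2 and 26.4 CPM in ASP shDHPS (0.56 ± 0.14, edgeR adjusted p = 0.0209). *Ccne1* had 35.8, 30.8, 28.9 and 29.5 CPM in ASP shDHPS, above the control libraries given earlier (0.61 ± 0.17, adjusted p = 0.0397). *Tfrc*, the transferrin receptor, had 211, 162, 253 and 207 CPM and 345, 256, 287 and 275 CPM (0.48 ± 0.12, adjusted p = 0.0288). In all 3 genes ASP shSCR replicate 2 was the lowest control library and ASP shDHPS replicate 1 the highest knockdown library. None of the 3 calls held without ASP shSCR replicate 2 (0 higher, 5 lower), without ASP shDHPS replicate 1 (0 higher, 7 lower) or without ASP shDHPS replicate 3 (0 higher, 5 lower). Some were also lost without ASP shSCR replicate 1 or 4 or ASP shDHPS replicate 2. With both ASP shSCR replicate 2 and ASP shDHPS replicate 1 left out, the log2 fold changes were 0.36 for *Gins3*, 0.38 for *Ccne1* and 0.28 for *Tfrc*, 5 members were lower and none higher, and the median of the members moved to -0.05.

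The same libraries stood out by role. The median of the 12 nucleotide supply genes differed from the mean of ASP shSCR by 0.462 in ASP shDHPS replicate 1 and by 0.083, 0.215 and 0.073 in the others. It differed by -0.315 in ASP shSCR replicate 2 and by 0.169, 0.086 and 0.063 in the other ASP shSCR libraries. In NoASP shSCR replicates 2, 3 and 4 it lay at -0.215, 0.197 and -0.039, so replicate 2 was the lowest there too. The group's median log2 fold change of 0.18 with shDHPS came with no call: *Mthfd2*, of mitochondrial folate metabolism, gave 0.39 ± 0.14 (edgeR adjusted p = 0.115), *Rrm2*, the ribonucleotide reductase subunit, 0.28 ± 0.12 (0.224), *Tk1* -0.04 and *Dut* -0.08. *Rrm2* fell from 0.28 to 0.06 when both libraries were left out. The 5 genes of the cohesin and condensin group were all negative, with a median of -0.22. They ran from -0.29 ± 0.09 for *Rad21*, the subunit that closes the cohesin ring (edgeR adjusted p = 0.0638), to -0.14 for *Ncapd2*, of condensin. Between them lay *Smc6*, of a related SMC complex (-0.24), *Pds5b*, a cohesin regulator (-0.22), and *Stag1*, a cohesin subunit (-0.15). None of the 5 passed.

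**Figure D4:**
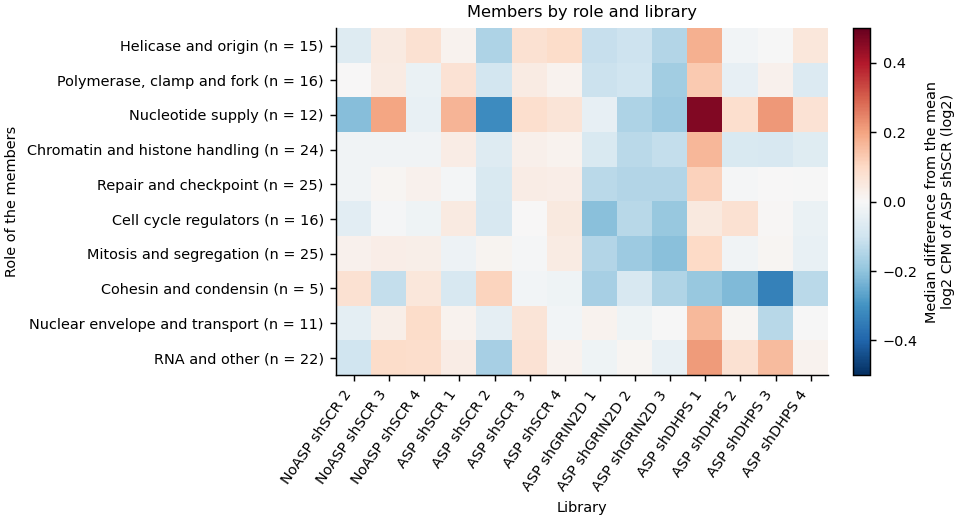
Median difference from the mean of ASP shSCR (colour, log2 CPM, blue lower and red higher) for each role (rows, with the number of genes) in each of the 14 libraries (columns). ASP shDHPS replicate 1 is reddest in nucleotide supply (0.462) and ASP shSCR replicate 2 bluest there (-0.315), while the 3 shGRIN2D columns are blue in most rows.

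Among other fixed examples, the DHPS knockdown gave *Mcm2* 0.01, *Mcm3* 0.02, *Mcm4* -0.04, *Mcm5* 0.06, *Mcm6* -0.11 and *Mcm7* -0.05, and none of the 6 passed. *Mcm3* lay at 192, 196, 202 and 212 CPM in ASP shDHPS, overlapping the control libraries. *Orc6* (0.25), *Chek1* (0.14), *Rad51ap1* (0.20) and *Nasp*, a histone chaperone (0.15), were positive, and *Dnmt1*, the maintenance DNA methyltransferase (-0.30 ± 0.10, edgeR adjusted p = 0.0919), *E2f8*, an E2F repressor (-0.21), and *Pole* (-0.13) were negative, none past the test. The 95% interval was -0.15 to 0.28 for *Pcna* and -0.06 to 0.22 for *Cdk4*. *Cdkn1a* (0.07), *Cdkn2c* (-0.02), *Cdc25a* (0.07), *Mybl2* (0.14), *Brca1* (-0.04), *Rfc3* (-0.03), *Gins1* (-0.03) and *Hells* (-0.03) were small.

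The 2 knockdowns were compared with each other, which leaves the control libraries out of the fold change. Of the members, 7 were higher with shDHPS than with shGRIN2D (4.09%) and none was lower at an adjusted p under 0.05 in edgeR's quasi-likelihood model. Among all genes 1.20% were higher and 1.62% lower, and among those at 5 CPM or more 2.12% and 2.53%. The median log2 fold change of the members was 0.12, beside 0.01 over all genes, with 133 positive and 38 negative. Without ASP shDHPS replicate 1 the median was 0.082 and 1 member, *Stag1*, was lower (edgeR adjusted p = 0.0469). With ASP shSCR replicate 2 left out as well, the median was 0.083 and 2 members were lower, *Stag1* (0.0287) among them. All 15 helicase and origin genes and all 12 nucleotide supply genes were positive, though 1 gene in each passed. This comparison and those above share knockdown libraries, so its values are not independent of theirs.

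*Ccne1* differed most, with 9.12, 12.7 and 9.07 CPM in ASP shGRIN2D and 35.8, 30.8, 28.9 and 29.5 CPM in ASP shDHPS. The lowest shDHPS library was above the highest shGRIN2D library, and the fold was 3.04 (log2 1.60 ± 0.19, edgeR adjusted p = 2.91e-05). *Ccp110* had 13.9, 12.5, 13.8 and 11.9 CPM in ASP shDHPS, above all 3 shGRIN2D libraries (0.70 ± 0.13, adjusted p = 0.00416). Both calls held in all 15 alternatives.

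*Dclre1b*, a nuclease that protects telomeres, had 17.9, 16.1 and 13.5 CPM in ASP shGRIN2D and 30.3, 26.2, 23.0 and 26.3 CPM in ASP shDHPS (0.74 ± 0.15, edgeR adjusted p = 0.00732). Its 22.2, 16.0, 22.9 and 23.2 CPM in ASP shSCR overlapped both groups, and neither comparison with the control passed (-0.41 and 0.33). *Mcm3* (0.43 ± 0.09, adjusted p = 0.00972) and *Depdc1a* (0.42 ± 0.10, 0.0256) were higher with shDHPS, whose *Depdc1a* libraries measured 51.5, 40.6, 44.4 and 40.4 CPM. For both genes the shDHPS mean was near that of ASP shSCR, with 200 CPM ± 8.64 and 198 ± 14.6 for *Mcm3* and 44.2 ± 5.22 and 45.5 ± 0.750 for *Depdc1a* (SD, n = 4 each).

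*Jpt1*, a microtubule-associated protein gene, had 259, 258 and 238 CPM in ASP shGRIN2D and 369, 314, 342 and 303 CPM in ASP shDHPS (0.40 ± 0.09, edgeR adjusted p = 0.0149). *Mthfd2* had 38.2, 36.0 and 31.8 CPM and 62.7, 51.6, 50.0 and 46.3 CPM (0.57 ± 0.15, adjusted p = 0.0363). Neither gene's groups overlapped. All 7 calls remained without ASP shSCR replicate 2 and ASP shDHPS replicate 1 together (adjusted p up to 0.0448). Of the 7, those of *Dclre1b*, *Mcm3*, *Jpt1*, *Depdc1a* and *Mthfd2* were each lost without shGRIN2D replicate 3 (adjusted p between 0.0518 and 0.193), 4 of them without replicate 2 and 3 without replicate 1. *Depdc1a* was lost without ASP shDHPS replicate 1 or 3 (0.0614 and 0.0563), and *Mthfd2* without 1, 2 or 3 (0.0610 to 0.104).

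In the negative direction the members with the smallest p were *Stag1* (-0.28 ± 0.09, edgeR adjusted p = 0.133), *Pds5b* (-0.26 ± 0.10), *Ctcf*, which anchors chromatin loops (-0.23 ± 0.09), *Cdkn1b* (-0.23 ± 0.09) and *Pold1* (-0.22 ± 0.11), and none passed. *Stag1* measured 81.1, 80.4 and 88.0 CPM in ASP shGRIN2D and 77.1, 64.9, 60.2 and 72.0 CPM in ASP shDHPS, without overlap. *Rad51ap1*, a gene of recombination (0.41 ± 0.12, adjusted p = 0.0688), *Chek1* (0.33 ± 0.10, 0.0822), *Gins3* (0.49 ± 0.15, 0.0883) and *Rrm2* (0.42 ± 0.13, 0.113) had all shDHPS libraries above all shGRIN2D libraries and missed the threshold. In alternatives *Rad51ap1* (DESeq2 adjusted p = 0.0290) and *Chek1* (DESeq2, 0.0337) passed. *Rrm2* passed when the fit held just the groups compared (edgeR adjusted p = 0.0269).

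**Figure D5:**
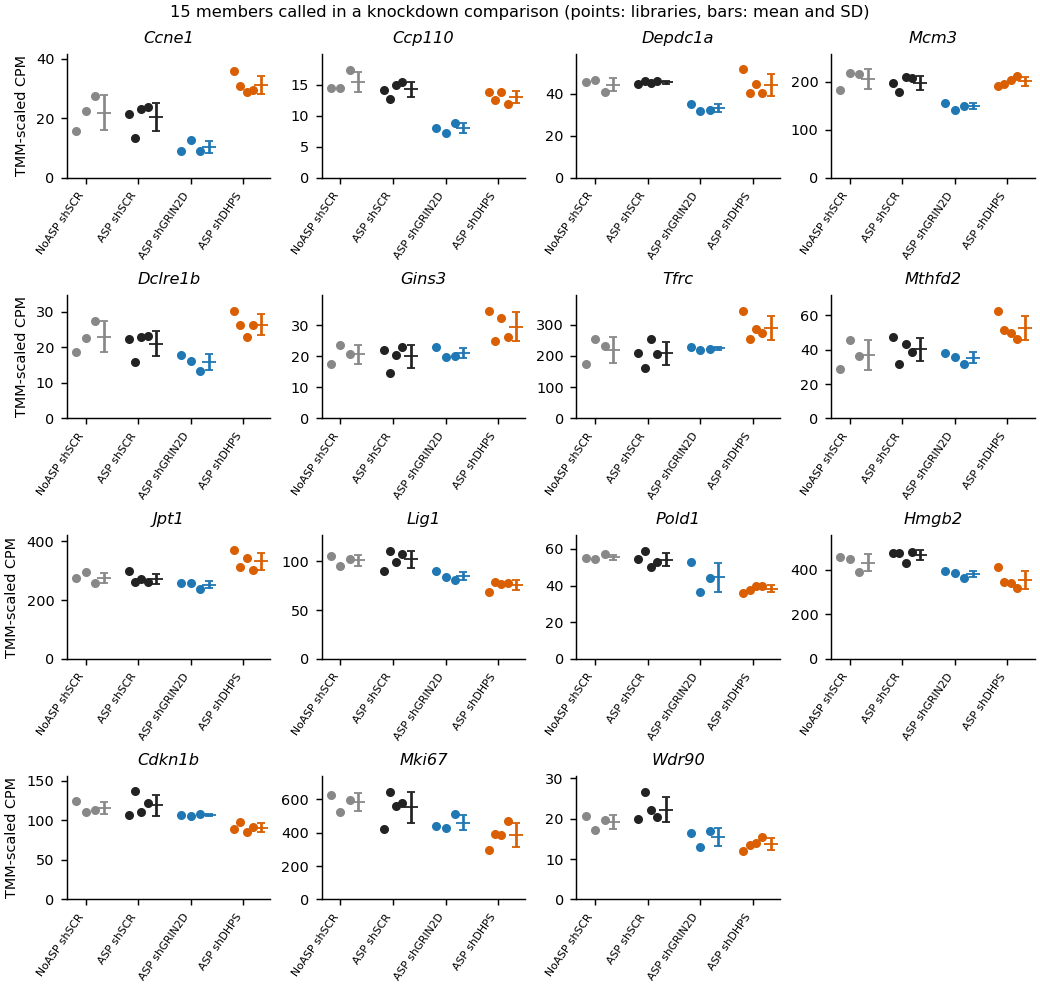
CPM of 15 members that passed the test in at least 1 knockdown comparison, by group (horizontal axes). Points are libraries and the bars beside them give mean and SD, all axes starting at 0. *Ccne1* runs from 10.3 CPM in ASP shGRIN2D to 31.3 in ASP shDHPS with the controls between, while *Lig1* and *Pold1* are lowest with shDHPS.

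Both knockdowns were set against the same ASP shSCR libraries, so the values of 1 gene in both are given side by side. *Ccne1* was lower in 1 and higher in the other (-0.99 and 0.61). *Wdr90* gave -0.53 ± 0.14 with shGRIN2D (edgeR adjusted p = 0.0608) and -0.70 with shDHPS, *Lig1* -0.27 and -0.43, *Hmgb2* -0.29 and -0.39, and *Pold1* -0.29 and -0.50. The epithelial marker sum was lower in every library of both knockdowns than in every control library, and its part in these results was not tested.

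Genes of the pathway that are not members were examined by lists. Of 29 E2F and retinoblastoma regulators fixed, 27 had counts, and none passed in any comparison. Their medians were -0.02 with shGRIN2D and 0.01 with shDHPS. *E2f1*, an activator E2F, gave 0.05 with shGRIN2D and 0.29 ± 0.09 with shDHPS (edgeR adjusted p = 0.0627), and *Ccna2*, cyclin A2, gave -0.28 ± 0.09 (0.149) and -0.01. Of 34 replication genes outside the set, 28 were negative with shGRIN2D, beside 4951 of the 10224 genes at 5 CPM or more. The median of the 34 was -0.11, with no call. With shDHPS 1 of them was higher, *Fen1*, the flap endonuclease (72.9 to 91.7 CPM, 0.33 ± 0.09, edgeR adjusted p = 0.0457). *Fen1* and *Chaf1b*, a histone chaperone (0.44 ± 0.11, adjusted p = 0.0360), were higher with shDHPS than with shGRIN2D. Of the genes at 5 CPM or more, 2.80% were higher with shDHPS, so 1 call among 34 is near the share of other genes. Between the knockdowns 2.12% of them were higher. The KEGG DNA replication set held 35 genes, of which 21 are members (60.0% of that set and 12.3% of the members). It had 1 lower gene with shGRIN2D, 1 higher and 2 lower with shDHPS, and 2 higher with shDHPS than with shGRIN2D, where the shares of all genes are those given above. Among the 14 genes of that set outside the members, *Fen1*, already given, was the only gene called. The other calls of the set were those of members. Of 18 growth arrest genes fixed, 17 had counts. With shGRIN2D 1 was lower, *Ccng1*, cyclin G1 (54.3 to 28.7 CPM, -0.92 ± 0.11, adjusted p = 4.85e-05), and 1 higher, *Btg2*, an antiproliferative gene (6.39 to 10.7 CPM, 0.74 ± 0.18, adjusted p = 0.0473), and with shDHPS none passed. Between the knockdowns *Ccng1* was higher with shDHPS (1.06 ± 0.11, edgeR adjusted p = 3.12e-06) and *Btg2* lower (-0.74 ± 0.18, 0.0281). Of the genes at 5 CPM or more, 1.29% were lower and 0.597% higher with shGRIN2D. Between the knockdowns 2.12% were higher and 2.53% lower with shDHPS.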

How the data were processed

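Polyadenylated RNA from cytosolic lysates of 14 spheroid samples, kept from the input of polysome experiments, was sequenced with a stranded kit. The authors trimmed reads with Trim Galore 0.6.6, mapped them to GRCm39 with STAR 2.6.1, and deposited gene-level estimated counts from Salmon 1.4.0, rounded to whole numbers. Genes had been kept only where at least 2 replicates of some condition showed expression. The authors' own tables of fold changes and gene set scores (DESeq2 1.34.0 and a gene set test) were not used. Salmon shares reads among similar transcripts, so close gene copies are less certain.

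Groups were read from the sample descriptions. The counts were scaled by TMM (factors 0.984 to 1.02) and fitted with edgeR 4.0.16 (R 4.3.3, limma 3.58.1) in 1 quasi-likelihood model of all 14 libraries with group as the only term. The two-sided p-values of all 19525 genes were adjusted together (Benjamini-Hochberg), with calls made below an adjusted p of 0.05. Log2 CPM used a prior count of 2. The counts ranged from 12731123 to 23231378 per library, which left all 171 members above edgeR's expression filter (13421 genes kept). The model was also run on simulated counts with known changes, drawn independently for each library with the fitted spread. They held no outlying libraries and no shifts shared by replicate number, so they say nothing about such effects here. No pair of libraries of a group agreed within sampling noise (chi-square per degree of freedom of 7.69 or more).

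The members and lists were chosen with earlier results of these data known. Named genes were the called members, where fewer than 10 were called the 5 smallest unadjusted p in each direction, a fixed list of examples, and the 5 most and 3 least variable members. Same-numbered replicates of NoASP shSCR and ASP shSCR deviated together across genes (r = 0.514, 0.287 and 0.203). Over the members alone r was 0.783, 0.422 and 0.393. In that comparison a fit with the replicate number as a block called 0 members as well. The alternatives were DESeq2 1.42.0, RLE size factors, library size alone, the expression filter, only the groups compared, the replicate block and leaving out each library. Added after the data were seen were the test without genes that hold the 7-base sequence and the fit without ASP shSCR replicate 2 and ASP shDHPS replicate 1. Promoters came from RefSeq (GRCm38.p6) and 3′ UTRs from GENCODE M21 (GRCm38), matched by gene because this build differs from that of the counts. The values of 1 called member are not reported here, though counts and medians include it.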

Additional observations from a re-analysis of the deposited data

Results flagged for a closer look

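In groups of 4 libraries, 1 library stood far from the other 3 by Dixon's criterion in 13 of 116 checks. A single check gives about 1 in 20 by chance. The checks share the same libraries and are not independent, so their count is a description. The median of the 171 members lay at -0.078 (log2 difference from the ASP shSCR mean) in ASP shSCR replicate 2, with the others at 0.025 to 0.032, and at 0.137 in ASP shDHPS replicate 1, with the others at -0.021 to -0.000059. Their share of the CPM was 2.17% in ASP shSCR replicate 2 (others 2.31%) and 2.47% in ASP shDHPS replicate 1 (others 2.22% to 2.25%).

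*Rrm2*, the ribonucleotide reductase subunit, was at 161 CPM in ASP shSCR replicate 2 (others 235 to 242) and 316 CPM in ASP shDHPS replicate 1 (others 247 to 248). In ASP shSCR replicate 2, *Dclre1b* was at 16.0 CPM (others 22.2 to 23.2), *Hells*, a chromatin remodeller, at 106 (others 126 to 128) and *Naa38* at 22.2 (others 28.5 to 29.6). *Lig1* was at 68.3 CPM in ASP shDHPS replicate 1 (others 77.2 to 78.9), and *Ppp1r8* at 67.6 in ASP shDHPS replicate 2 (others 63.4 to 63.8). *Hmgb2* was at 432 CPM in ASP shSCR replicate 3 (others 474 to 479) and *Prdx4* at 99.2 in ASP shSCR replicate 1 (others 84.1 to 85.0). Of the 13 values, 10 came from ASP shSCR replicate 2 or ASP shDHPS replicate 1.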

How the results depend on the processing

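No called value changed sign. With aspartate, 0 members were called in every alternative, and the median, -0.01 as reported, lay between -0.028 and 0.021. With shGRIN2D, the 5 members called (all lower) became 9 with DESeq2, 8 when the fit held just the groups compared, 11 with the replicate block over all libraries, 8 without ASP shSCR replicate 2 and ASP shDHPS replicate 1 together, 1 without the genes that hold TCATGAA, and 1 to 4 when 1 library was left out. The median stayed between -0.14 and -0.10. With shDHPS, the 10 called (3 higher, 7 lower) became 26 with the replicate block over all libraries (14 higher, 12 lower), 25 with the block within the groups compared (15 higher, 10 lower), 5 without both of those libraries, and 5 to 13 without 1 library. The median of the members changed sign, from 0.01 to -0.049, without both, and was -0.015 when ASP shSCR replicate 2 alone was left out and -0.021 when ASP shDHPS replicate 1 alone was. Between the knockdowns, the 7 called became 15 with DESeq2, 11 with the expression filter, 27 with the replicate block over all libraries (25 higher, 2 lower), 21 with the block within the groups compared (20 higher, 1 lower), 3 without the genes that hold TCATGAA, and 2 to 8 without 1 library, with a median between 0.082 and 0.150. The cause of these shifts was not tested. Some of these fits also held fewer libraries or genes, and the part this played was not tested either. In each knockdown comparison at least 1 pair of same-numbered libraries had r of 0.1 or less over genes at 5 CPM or more (r from -0.117 to 0.042 for shGRIN2D, 0.040 to 0.258 for shDHPS and 0.005 to 0.231 between them), so the numbers were not taken as pairs. Over the members alone r was -0.311 to 0.124, 0.085 to 0.519 and 0.122 to 0.173. Of 22 calls of single members, 8 held in every alternative. Some named members that were not called passed in an alternative. With the replicate block over all libraries these included *Tk1* with shGRIN2D (edgeR adjusted p = 0.0125). With shDHPS they included *Dnmt1* (0.00914), *Mthfd2* (0.0101) and *Rrm2* (0.0278) in the same fit.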
